A study of Mus musculus with 14 samples.

Results

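The liver transcripts described here encode 9 enzymes of tryptophan breakdown through kynurenine, *Tdo2*, *Ido2*, *Afmid*, *Kmo*, *Kynu*, *Haao*, *Acmsd*, *Qprt* and *Aadat*. They were chosen by symbol, because tryptophan is the parent compound of indole, by a rule that uses no measured value. All 9 were found among the 55487 genes of the count table, and all 9 had enough reads to be among the 12653 genes tested. Bulk RNA was sequenced from the right liver lobe of 14 male TALLYHO mice aged 8–12 weeks, a strain with polygenic type 2 diabetes in which diabetes is limited to males and progresses at different rates between animals. Vehicle (water) had been given by oral gavage to 7 mice (G1, G4, G6, G9, G10, G11 and G13), and indole at 20 mg/kg to the other 7 (G2, G3, G5, G7, G8, G12 and G14), as 2 doses per day for 7 days. Both groups then underwent a glucose tolerance test and an insulin tolerance test with further doses between them, so that every liver was collected after both tests, a day after the last of them. Each library is 1 mouse.

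Hepatocytes clear most surplus dietary tryptophan through this route. TDO (from *Tdo2*), a liver enzyme induced by glucocorticoids and by tryptophan itself, opens the indole ring of tryptophan to give formylkynurenine, and the related enzymes IDO1 and IDO2 perform the same reaction. Arylformamidase (*Afmid*) releases kynurenine, which then meets a branch: kynurenine monooxygenase (*Kmo*) and kynureninase (*Kynu*) carry it towards hydroxyanthranilate, while aminotransferases such as that encoded by *Aadat* turn it into kynurenic acid. The oxygenase encoded by *Haao* makes an unstable semialdehyde that either closes spontaneously into quinolinate or is decarboxylated by the *Acmsd* product. The *Qprt* product uses quinolinate to start NAD synthesis, and the decarboxylated product can be oxidised through glutaryl-CoA to acetyl-CoA. The comparison asked whether transcripts of the host route that shares tryptophan with indole-producing bacteria differed in level between indole-treated and vehicle-treated mice.

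Gene counts per library totalled 15390922–21060376 for vehicle (median 18117524) and 15197498–18464326 for indole (median 17740715). Levels are given as CPM, the count of a gene scaled to the size of its library, after TMM scaling, which corrects each library for its composition, and, where genes are compared with each other, as CPM per kilobase of the gene length in the table (RPKM). The scaling factors placed 4 libraries apart from the rest. G1 to G4, of which 2 were vehicle and 2 indole, had factors of 1.07 to 1.08, whereas the other 10 had factors from 0.931 upwards, none of which reached 1.07. The labels give no batch, and whether these 4 libraries were prepared separately was not tested. The edgeR comparison was therefore repeated without them and with a term for them, and the exact tests of transcript ratios were repeated without them. Hepatocyte markers summed to 75518–96508 CPM with vehicle and to 68782–102600 CPM with indole, led per length by *Alb*. Markers of kidney proximal tubule, the other tissue rich in these enzymes, summed to at most 1.66 CPM in any mouse, with *Lrp2* the most abundant and 2 of 4 listed markers without a read. In bulk tissue, fewer cells of a type cannot be told apart from less RNA per cell.

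No kynurenine pathway transcript differed between the groups beyond the spread between mice after adjustment. edgeR's quasi-likelihood test called 0 of 12653 genes at an adjusted *p* below 0.05, a share of 0%, and the smallest adjusted *p* over all genes was 0.998. At an unadjusted *p* below 0.05 it placed 482 genes, or 3.81% of those tested, with 1.53% higher in indole and 2.28% lower. None of the 9 enzymes was among them (0 higher, 0 lower). DESeq2 on the same genes placed 532 at an unadjusted *p* below 0.05 and called 1 after adjustment, the cytochrome P450 gene *Cyp2c29*, which is no enzyme of this pathway and is named because it was the only call (log2 fold change 0.42 ± 0.0890, adjusted *p* = 0.0393). The fold changes of the 9 enzymes were positive for 3 (*Afmid*, *Haao* and *Qprt*) and negative for 6, with a median of −0.03 on the log2 scale against 0.00 over all genes tested. Their median size, disregarding sign, was 0.105 on the log2 scale, and over all genes tested it was 0.0886. The 95% confidence intervals of all 9 lay between −0.53 and 0.53 on the log2 scale, or folds of 0.693 to 1.45, so that larger changes of any single enzyme lie outside its interval at this sample size. For no enzyme were the groups free of overlap, which was the case for 0.0474% of all genes tested.

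**Figure D1:**
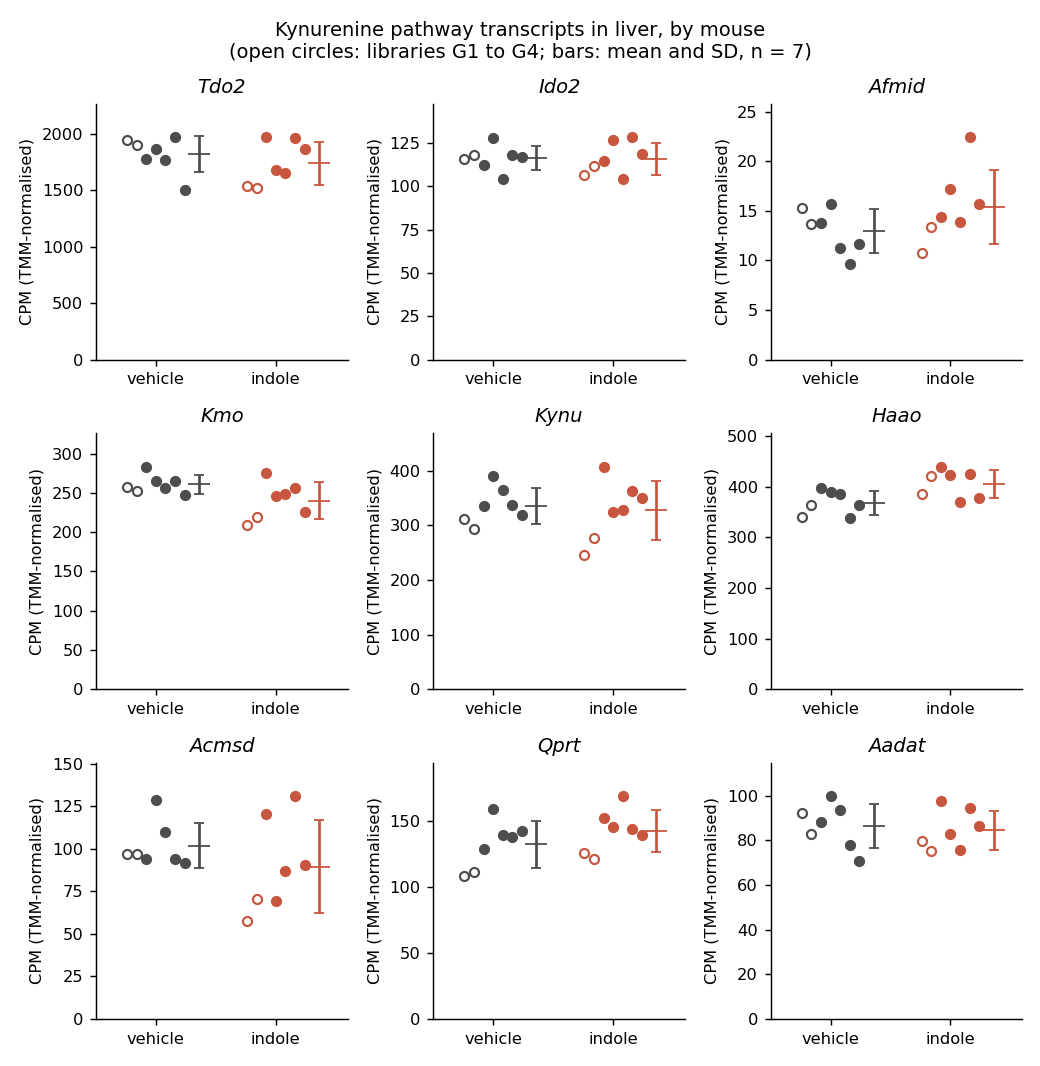
TMM-normalised CPM of the 9 enzyme transcripts, 1 point per mouse (vehicle grey, indole red, n = 7 each), with the group mean and SD beside the points and libraries G1 to G4 as open circles. The groups overlap in all 9 panels, and the open circles are the 4 lowest points for *Kynu* and *Qprt*.

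The pathway was dominated at the level of transcript by its first enzyme. *Tdo2* averaged 469 ± 41.2 RPKM (mean ± SD, n = 7) in the vehicle group, rank 115 among the genes tested, and made up 57.2% ± 2.73 of the summed RPKM of the 9 enzymes. In the indole group that share was 56.1% ± 1.09. *Haao* came next at 78.7 ± 5.04 RPKM, so that the *Tdo2* to *Haao* ratio of RPKM was 5.99 ± 0.777 in the vehicle group and above 1 in 14 of 14 mice. *Haao* exceeded *Kmo* (55.2 ± 2.51 RPKM) in 14 of 14 mice as well.

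The middle of the order was less distinct. *Kmo* and *Kynu* (54.6 ± 5.34 RPKM) did not differ beyond their spread, since the *Kmo* to *Kynu* ratio was 1.02 ± 0.0916 and exceeded 1 in 5 of 7 vehicle-treated mice. *Qprt* followed at 50.1 ± 6.75 RPKM. The *Kynu* to *Qprt* ratio was 1.10 ± 0.0850 in the vehicle group and above 1 in 6 of 7 of its mice, but in 9 of all 14. *Aadat* followed at 39.7 ± 4.58 RPKM, then *Acmsd* at 35.9 ± 4.70 RPKM and *Ido2* at 31.9 ± 1.92 RPKM. Each of these neighbours kept its order in at least 6 of 7 vehicle-treated mice, and *Acmsd* exceeded *Ido2* in 10 of all 14.

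*Afmid* stood far below the rest at 3.67 ± 0.629 RPKM, rank 5537, with *Ido2* 8.89 ± 1.55 times as high. Its level is uncertain. In the GENCODE annotation of GRCm38, 44.2% of the exon bases of *Afmid* are shared with *Gm20708*, a gene model on the same strand that runs through the locus and had 0 reads in all 14 mice. The tool that made the counts is not given in the sources used here, and reads falling on both models may have been left uncounted.

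**Figure D2:**
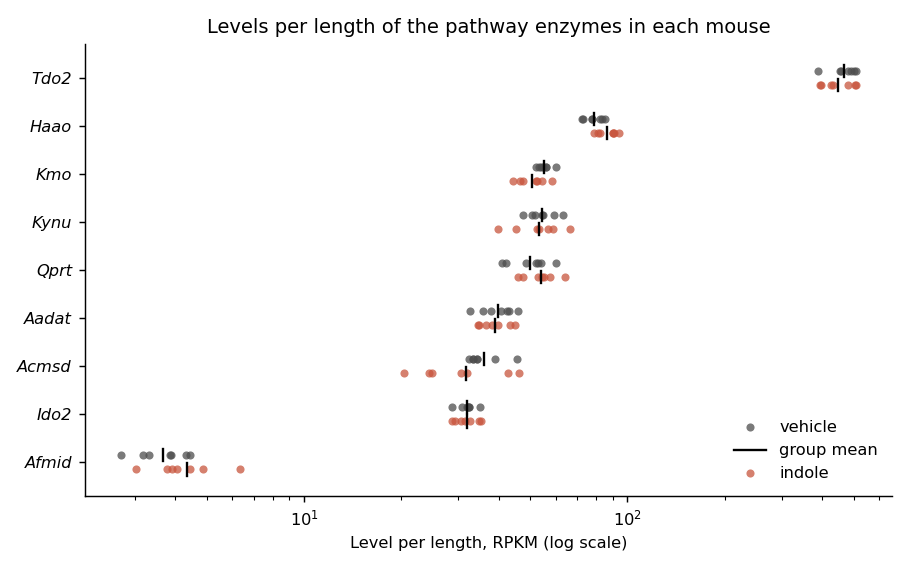
Level per length (RPKM, log scale) of each enzyme transcript in each mouse, vehicle above and indole below, with the group mean as a black line. *Tdo2* lies above and *Afmid* below all other enzymes in every mouse, while *Kmo*, *Kynu* and *Qprt* overlap.

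The ring-opening enzymes showed no difference that passed the test. *Tdo2* (chromosome 3, 81957090–81976202, minus strand) ranged from 1502 CPM in G13 to 1969 CPM in G11 in the vehicle group, with a median of 1869 CPM. In the indole group it ranged from 1524 CPM in G3 to 1972 CPM in G5, with a median of 1679 CPM. Only 2 of 7 indole values exceeded the vehicle median, and 6 of 7 lay within the vehicle range, so that the groups overlapped almost completely. The fold change was −0.06 ± 0.0830 on the log2 scale (fold change ± SE, 95% interval −0.24 to 0.11, unadjusted *p* = 0.458, adjusted *p* = 0.998). The 4 libraries with high scaling factors split by treatment for this gene. Among them both vehicle libraries were at 1903 CPM or more and both indole libraries at 1535 CPM or less, a log2 difference of −0.33, whereas the other 10 mice gave a log2 fold change of 0.04 ± 0.0863 (unadjusted *p* = 0.617), so that the sign of the pooled value rests on G1 to G4.

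*Ido2* (chromosome 8, 24531892–24576333, minus strand) was nearly level between the groups. It ranged from 104 to 127 CPM in the vehicle group (median 117) and from 104 to 128 CPM in the indole group (median 114). For *Ido2* the log2 fold change was −0.00 ± 0.0670 (95% interval −0.14 to 0.13, unadjusted *p* = 0.941), and its sign turned under several alternative settings. *Ido2* was among the least variable genes of the table, with a within-group SD of 0.103 on the log2 CPM scale that was undercut by 4.13% of the genes tested. *Ido1*, the neighbouring paralogue that interferon induces in many tissues and that starts 7802 bases beyond the end of *Ido2*, had 2 reads in all, both in the vehicle library G10. A count of 3 reads corresponds to 0.142–0.203 CPM in these libraries, so any *Ido1* transcript was below that level in each of them.

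*Afmid* (chromosome 11, 117825924–117839908, plus strand) had the largest fold change of the 9 and the fewest reads, 166 to 398 per mouse. It ranged from 9.64 CPM in G11 to 15.7 CPM in G9 in the vehicle group (median 13.7) and from 10.7 CPM in G2 to 22.4 CPM in G12 in the indole group (median 14.3). The vehicle median was exceeded in 5 of 7 indole-treated mice and the vehicle range in 2. Its log2 fold change was 0.24 ± 0.141 (95% interval −0.05 to 0.53, unadjusted *p* = 0.102). Without G12 it was 0.13 on the log2 scale, and without G2 it was 0.31 (unadjusted *p* = 0.0281). Without G1 to G4 it was 0.43 ± 0.151 (95% interval 0.11 to 0.75, unadjusted *p* = 0.0109), while with a term for them and all 14 mice it was 0.23 ± 0.143 (unadjusted *p* = 0.121). Within G1 to G4 the log2 difference was −0.27. *Tk1* overlaps it on the opposite strand over 169 bases and shares 2.35% of its exon bases.

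**Figure D3:**
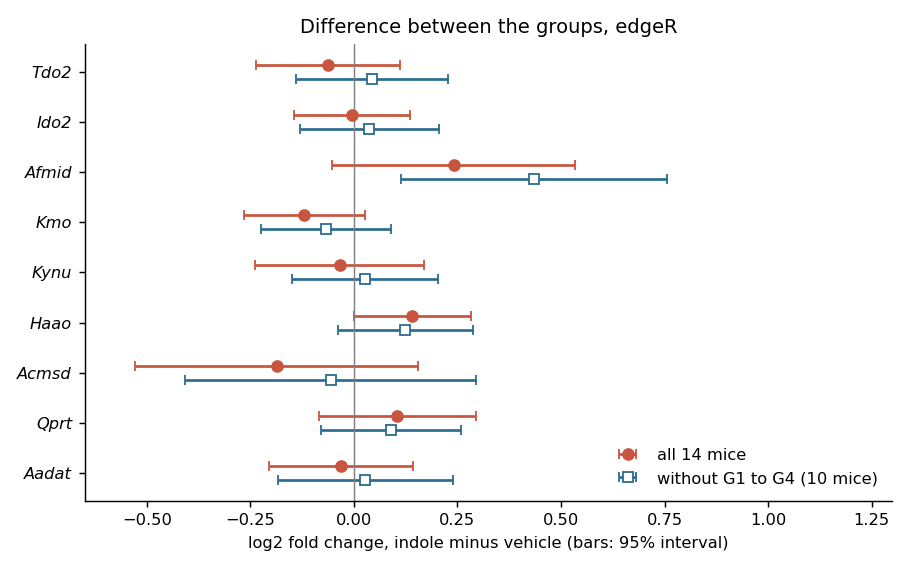
Log2 fold change of each enzyme transcript, indole minus vehicle, from edgeR with its 95% confidence interval, for all 14 mice (filled circles) and for the 10 mice other than G1 to G4 (open squares). All 9 intervals from 14 mice include 0, and with 10 mice the interval of *Afmid* runs from 0.11 to 0.75.

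Downstream of kynurenine, the *Kmo* and *Haao* transcripts had fold changes of opposite sign. *Kmo* (chromosome 1, 175620381–175662116, plus strand), whose product hydroxylates kynurenine at the outer mitochondrial membrane, ranged from 247 to 283 CPM in the vehicle group (median 258). In the indole group it ranged from 209 CPM in G2 to 276 CPM in G5 (median 247), with 4 of 7 mice below the vehicle range. This gave a log2 fold change of −0.12 ± 0.0703 (95% interval −0.27 to 0.03, unadjusted *p* = 0.105), and an exact permutation test of mean log2 CPM gave *p* = 0.0624. The value depended on single mice: it was −0.16 (unadjusted *p* = 0.0363) without G5 and −0.09 without G2. Within G1 to G4 the log2 difference was −0.25, and without these 4 libraries the log2 fold change was −0.07 ± 0.0740 (unadjusted *p* = 0.383). *Fh1*, an abundant gene, overlaps *Kmo* on the opposite strand over 5255 bases but shares 0 exon bases with it in GENCODE.

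*Haao* (chromosome 17, 83831156–83847963, minus strand) had the smallest *p* of the 9. It ranged from 338 CPM in G11 to 398 CPM in G6 in the vehicle group (median 364) and from 369.5 CPM in G8 to 439.6 CPM in G5 in the indole group (median 421). Every indole value (7 of 7) exceeded the vehicle median, and 4 of them exceeded the vehicle range, while the lower 3 overlapped it. edgeR gave *Haao* a log2 fold change of 0.14 ± 0.0677 (95% interval −0.00 to 0.28, unadjusted *p* = 0.0509, adjusted *p* = 0.998). In the exact permutation test of mean log2 CPM *Haao* had *p* = 0.0216 and was the only one of the 9 below 0.05, a limit that 4.2% of all genes tested passed. The unadjusted *p* crossed 0.05 with the setting: it was 0.0488 with RLE scaling, 0.0205 in DESeq2, 0.0498 in limma voom and 0.0326 with the term for G1 to G4, but 0.0835 with no filter on low counts. Without G1 to G4 the log2 fold change was 0.12 ± 0.0767 (unadjusted *p* = 0.125). *Haao* also varied little between mice, its within-group SD of 0.0960 on the log2 CPM scale being undercut by 2.88% of the genes tested.

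*Kynu* (chromosome 2, 43555329–43682715, plus strand), which encodes kynureninase, showed more spread and no shift. It ranged from 293 to 389.7 CPM in the vehicle group (median 334) and from 245 CPM in G2 to 407 CPM in G5 in the indole group (median 327). The indole range enclosed that of the vehicle group. The log2 fold change was −0.03 ± 0.0981 (unadjusted *p* = 0.731), and it was positive, at 0.03, without G1 to G4. In either group the lowest *Kynu* values were those of G1 to G4, which reached at most 311 CPM, against at least 318 CPM in the other 10 mice.

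The transcripts on either side of the semialdehyde branch had fold changes of opposite sign. *Acmsd* (chromosome 1, 127729413–127767978, plus strand), which diverts the intermediate away from NAD synthesis, had the largest within-group SD of log2 CPM of the 9. It ranged from 91.8 CPM in G13 to 129 CPM in G9 in the vehicle group (median 96.7) and from 57.7 CPM in G2 to 131 CPM in G12 in the indole group (median 86.7). Below the vehicle range lay 5 of 7 indole-treated mice, 1 lay above it, and only 1 within. Its log2 fold change was −0.19 ± 0.161 (95% interval −0.53 to 0.16, unadjusted *p* = 0.263), and it was −0.06 ± 0.162 without G1 to G4. It also moved with single mice, to −0.10 without G2, −0.12 without G9 and −0.30 without G12 (unadjusted *p* = 0.0503), and to −0.29 in limma voom (unadjusted *p* = 0.0667). Its SD was 13.3 CPM with vehicle and 27.3 CPM with indole, a difference that was not tested. The within-group SD on the log2 CPM scale, 0.330, exceeded that of 67.7% of genes. An antisense transcript, *2900009J06Rik*, overlaps *Acmsd* but had 240 reads in all against 23588 for *Acmsd*.

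*Qprt* (chromosome 7, 127107114–127122226, minus strand) ranged from 108 CPM in G1 to 159 CPM in G9 in the vehicle group (median 138) and from 121 CPM in G3 to 169 CPM in G8 in the indole group (median 144). Of the 7 indole-treated mice, 6 lay within the vehicle range. The log2 fold change was 0.10 ± 0.0909 (95% interval −0.08 to 0.29, unadjusted *p* = 0.262). As for *Kynu*, the 4 lowest values were those of G1 to G4, at most 126 CPM against at least 129 CPM elsewhere. With a term for these libraries the standard error of *Qprt* was 0.0611 and its log2 fold change 0.11 (unadjusted *p* = 0.0916).

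*Aadat* (chromosome 8, 60505932–60545677, plus strand), whose product makes kynurenic acid, ranged from 70.8 CPM in G13 to 99.8 CPM in G9 in the vehicle group (median 88.4) and from 75.3 CPM in G3 to 97.6 CPM in G5 in the indole group (median 82.8). All 7 indole-treated mice lay within the vehicle range. The log2 fold change was −0.03 ± 0.0832 (95% interval −0.20 to 0.14, unadjusted *p* = 0.713).

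Because a ratio of 2 genes within a library does not depend on its scaling, 3 pairs of transcripts were compared directly, those on either side of the 2 branches and the 2 ring-opening enzymes, with exact permutation tests adjusted over the 3 ratios. The *Acmsd* to *Qprt* ratio of RPKM was 0.601 (G13) to 0.833 (G1) in the vehicle group, with a median of 0.736. In the indole group it was 0.428 (G2) to 0.848 (G12), with a median of 0.544, and 4 of 7 mice lay below the vehicle range while G12 lay above it. The mean log2 ratio was 0.34 lower in the indole group (difference −0.34, two-sided exact permutation *p* = 0.0530, adjusted *p* = 0.159), which missed the threshold. The result turned on single libraries: without G12 the difference was −0.44 (exact *p* = 0.0105), and without G2 it was −0.27 (exact *p* = 0.104). Without G1 to G4 it was −0.17 (exact *p* = 0.373). Of these 4 libraries, G1 had the highest ratio of the vehicle group and G2 the lowest of all.

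The other 2 ratios were closer to level. The *Aadat* to *Kmo* ratio of RPKM was 0.719 ± 0.0778 with vehicle and 0.766 ± 0.0615 with indole (log2 difference 0.09, exact permutation *p* = 0.218, adjusted *p* = 0.327). This ratio takes *Aadat* alone for its side of the branch. It leaves out other aminotransferases, among them *Got2*, which was higher per length at 137 RPKM in the vehicle group. The *Ido2* to *Tdo2* ratio of RPKM was 0.0685 ± 0.00728 and 0.0713 ± 0.00652 (log2 difference 0.06, exact permutation *p* = 0.438, adjusted *p* = 0.438).

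**Figure D4:**
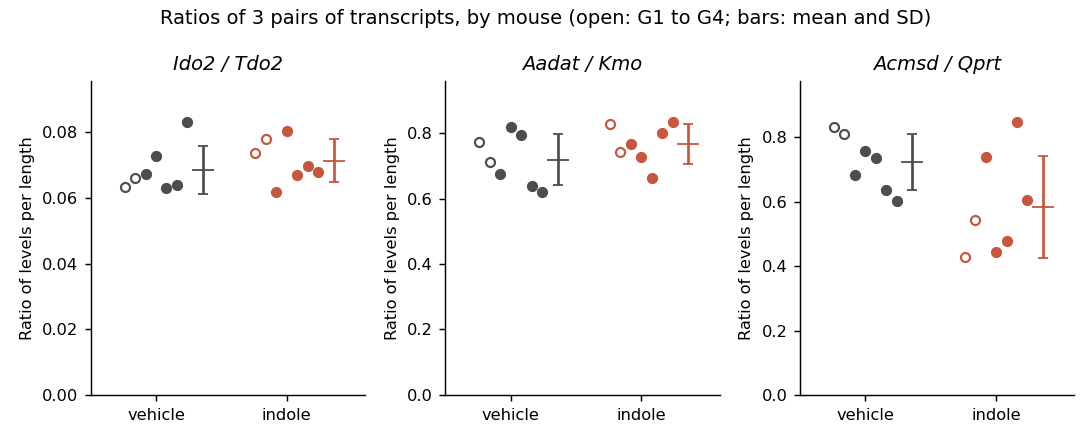
Ratio of levels per length for 3 pairs of transcripts, 1 point per mouse (vehicle grey, indole red, G1 to G4 open, bars mean and SD). The *Acmsd* to *Qprt* ratio has a mean of 0.723 in vehicle and 0.584 in indole, with the indole mouse G12 the highest of all at 0.848.

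The enzymes were also compared with each other across mice, with group means taken out. All 36 pairwise Pearson correlations of log2 CPM were positive (range 0.0424 to 0.865), with a median of 0.461, whereas the median over all pairs of genes tested was −0.00. All 14 points of each pair share their libraries and scaling, and no baseline of other hepatocyte transcripts was computed. After adjustment over the 36 pairs, 8 pairs passed 0.05 by Pearson's *r* and 1 by Spearman's *rho*. That pair was *Kynu* and *Acmsd*, with *r* = 0.865 (permutation *p* = 0.00056, adjusted *p* = 0.0202) and *rho* = 0.851 (permutation *p* = 0.00086, adjusted *p* = 0.031). It gave *r* = 0.744 without G2 and G5, the mice farthest from the *Kynu* median, 0.808 within the vehicle group, 0.887 within the indole group and 0.844 within the 10 mice other than G1 to G4.

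Some of the joint variation went with G1 to G4. Within the other 10 mice the median *r* was 0.325, and 30 of 36 pairs were positive. *Kynu* and *Qprt* had *r* = 0.686 over 14 mice (permutation *p* = 0.00552, adjusted *p* = 0.0495; *rho* = 0.679, permutation *p* = 0.00822, adjusted *p* = 0.0746) and 0.718 without G2 and G5, but *r* = 0.231 within the 10. *Kmo* and *Kynu* gave 0.765 over 14 mice, 0.442 within the 10 and 0.468 without G2 and G5. *Tdo2* and *Aadat* gave 0.707 over 14 mice, 0.681 within the 10 and 0.481 without G13 and G3. *Acmsd* and *Aadat* gave 0.699, 0.733 and, without G12 and G5, 0.557. *Kynu* and *Aadat* gave 0.651, 0.871 and, without G2 and G5, 0.647. *Ido2* and *Afmid* gave 0.698, 0.652 and, without G10 and G8, 0.738. *Tdo2* and *Acmsd* gave 0.697, 0.624 and, without G13 and G3, 0.749. Each of these pairs had an adjusted permutation *p* of 0.0495 by Pearson's *r* and of 0.0614 to 0.136 by Spearman's *rho*. The pair with the lowest *r* was *Afmid* and *Qprt*, at 0.0424, and *Tdo2* was nearly unrelated to *Haao* (0.0484) and *Qprt* (0.0497).

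**Figure D5:**
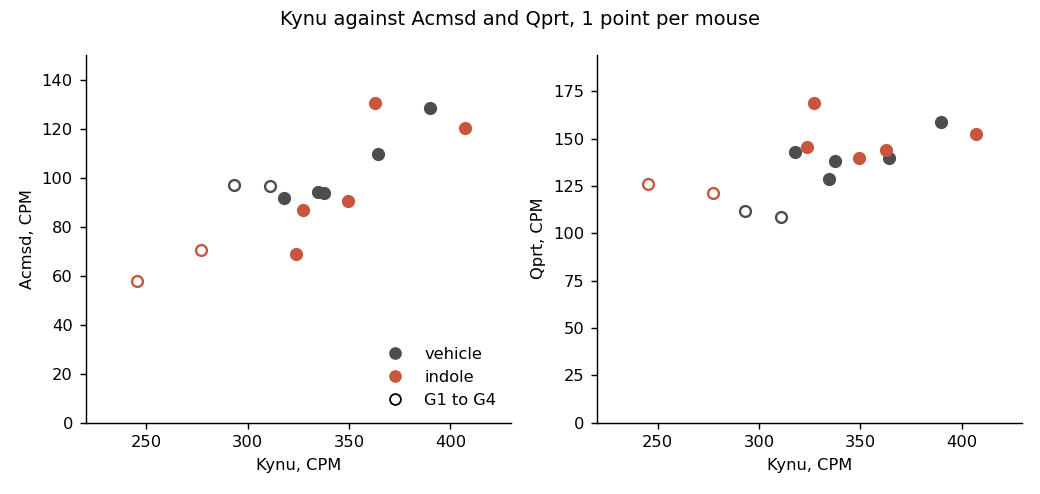
*Kynu* CPM against *Acmsd* CPM (left) and *Qprt* CPM (right), 1 point per mouse, with G1 to G4 as open circles (the horizontal axis does not start at 0). The 4 open circles lie at the low end of *Kynu* in both panels; within the 10 filled points *r* of log2 CPM, group means taken out, is 0.844 for *Acmsd* and 0.231 for *Qprt*.

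Among all genes tested, those whose log2 CPM followed *Tdo2* most closely over the 14 mice, group means taken out, were *Cdr2* (*r* = 0.843), *Abat* (*r* = 0.829), which encodes the transaminase of the inhibitory transmitter GABA, and *Dnajb4* (*r* = 0.823), a heat shock co-chaperone gene. The enzyme of the pathway nearest to *Tdo2* was *Aadat*, at rank 61. *Acmsd* was at rank 71, *Kynu* at 200, *Kmo* at 229, *Afmid* at 675 and *Ido2* at 988. *Qprt* and *Haao* were at ranks 5288 and 5303, so many genes outside the pathway followed *Tdo2* more closely. The genes closest to *Haao* were the histone methyltransferase gene *Suv39h2* (*r* = 0.927), the ribosomal protein pseudogene *Rpl39-ps* (*r* = 0.849) and *Hacd1* (*r* = 0.820). These are descriptions over 14 libraries, and no enzyme of the pathway was among the 3 closest genes of either.

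Indole compounds are known as ligands of the aryl hydrocarbon receptor, whose response element has the core GCGTG. RefSeq promoter windows on GRCm38.p6, from 250 bases before to 50 bases after the RefSeq start, were used for 6 of the 9 enzymes (*Tdo2*, *Afmid*, *Kmo*, *Haao*, *Qprt* and *Aadat*). The core, read on both strands, was found in 2 of these 6, *Tdo2* and *Haao*, once each, and in 32.4% of 32850 promoters of the same length. The first base of the core lay 194 bases before the RefSeq start in *Tdo2* and 137 bases before it in *Haao*. AGAACA, a short motif of the glucocorticoid response element, also read on both strands, was found in *Kmo* and *Haao* and in 19.0% of promoters. A match is a description of letters and not a binding site. The 2 windows with a receptor core are shown 5′ to 3′, with both motifs in capitals (GCGTG or its reverse complement CACGC, and in *Haao* also TGTTCT, the reverse complement of AGAACA), to show where these letters lie.
Tdo2, chr3:81975679-81975978 (minus strand): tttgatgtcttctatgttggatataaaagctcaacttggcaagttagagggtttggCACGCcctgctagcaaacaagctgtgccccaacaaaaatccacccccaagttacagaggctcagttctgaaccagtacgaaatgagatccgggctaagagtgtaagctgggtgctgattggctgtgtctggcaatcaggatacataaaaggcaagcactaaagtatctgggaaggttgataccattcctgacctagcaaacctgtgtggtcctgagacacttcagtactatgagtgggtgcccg
Haao, chr17:83846741-83847040 (minus strand): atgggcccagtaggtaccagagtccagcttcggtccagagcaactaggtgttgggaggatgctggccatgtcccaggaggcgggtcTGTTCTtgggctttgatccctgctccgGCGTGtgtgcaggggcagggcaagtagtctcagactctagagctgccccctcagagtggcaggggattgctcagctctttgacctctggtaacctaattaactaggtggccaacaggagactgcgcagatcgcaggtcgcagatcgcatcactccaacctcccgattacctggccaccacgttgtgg
The deposited starts of *Tdo2*, *Haao* and *Kmo* lie 474, 1173 and 11812 bases from those of RefSeq, so these windows describe a RefSeq start and not necessarily the one used in these livers.

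The enzymes and transporters around the pathway were taken from 7 lists of 53 genes, of which 43 were tested. At an unadjusted edgeR *p* below 0.05 there were 2 of 43, or 4.65%, against 3.81% of all genes, and 0 passed adjustment. The median log2 fold change over the 43 was 0.02, with 24 positive and 19 negative. Of the transporters of tryptophan and other aromatic amino acids, 5 of 7 were tested. *Slc16a10*, an aromatic amino acid transporter, ranged from 66.6 to 101 CPM in the vehicle group (median 85.3) and from 58.8 to 88.7 CPM in the indole group (median 74.0). The groups overlapped, and 1 of 7 indole values exceeded the vehicle median (log2 fold change −0.21 ± 0.0961, unadjusted *p* = 0.0432, exact permutation *p* = 0.0798). *Slc3a2*, the heavy chain of several amino acid transporters and the most abundant per length, had a log2 fold change of 0.08 ± 0.135.

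The glutarate route, which oxidises the product of *Acmsd* to acetyl-CoA, was tested for 8 of 8 genes, with 5 positive and 3 negative. *Acat1*, the mitochondrial thiolase at its end, ranged from 195 to 238 CPM in the vehicle group (median 219) and from 221 to 268 CPM in the indole group (median 243). Every indole value (7 of 7) exceeded the vehicle median, though the ranges overlapped (log2 fold change 0.16 ± 0.0688, unadjusted *p* = 0.0299, exact permutation *p* = 0.0122, adjusted *p* = 0.998). *Gcdh*, glutaryl-CoA dehydrogenase and the most abundant per length of this list, had a log2 fold change of 0.05 ± 0.0733.

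None of the remaining 5 lists held a gene with an unadjusted edgeR *p* below 0.05. The exact permutation test of mean log2 CPM, which 4.2% of all genes tested passed at 0.05, gave lower values for *Nmnat3* and *Gstz1*. *Nmnat3*, under NAD synthesis, had a log2 fold change of −0.24 ± 0.125 (edgeR *p* = 0.0660, exact permutation *p* = 0.0256). That of *Gstz1*, under phenylalanine, tyrosine and histidine breakdown, was 0.11 ± 0.0646 (edgeR *p* = 0.102, exact permutation *p* = 0.0210). The list of other kynurenine enzymes held *Ido1*, which was not tested, and 3 aminotransferases, whose fold changes were all positive, between 0.02 and 0.06 on the log2 scale, with *Got2* the most abundant per length at 137 ± 11.6 RPKM in the vehicle group. Of 8 tested genes listed under NAD synthesis 5 were positive and 3 negative. Highest per length was *Nnmt*, which methylates nicotinamide and is not itself an enzyme of NAD synthesis. Of 4 tested genes of the serotonin and tryptamine route 1 was positive, led by the aldehyde dehydrogenase gene *Aldh2*. The hydroxylation and sulfation of indole, the route by which liver makes indoxyl sulfate, had 5 of 5 genes tested, 1 positive and 4 negative, and *Cyp2e1*, the cytochrome P450 that hydroxylates indole, had a log2 fold change of 0.04 ± 0.0783 at 2093 ± 256 RPKM in the vehicle group. Of 10 genes of phenylalanine, tyrosine and histidine breakdown 6 were positive and 4 negative, led by *Hpd*, the dioxygenase of tyrosine breakdown.

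Markers of some other cells differed in value between the groups, and their part in the values of the 9 enzymes was not tested. Markers of Kupffer cells and macrophages summed to 109–284 CPM with vehicle and to 128–526 CPM with indole. The 526 CPM were those of G8, the next indole library being at 216 CPM. Per length *C1qa* was the most abundant, and 10 of the 11 markers had a positive fold change, 0 of them at an unadjusted *p* below 0.05. All 3 tested markers of erythroid cells, of 4 listed, had an unadjusted *p* below 0.05 with a positive fold change, against 1.53% of all genes in that direction, led by *Hba-a1*, and summed to 186–352 CPM against 244–990 CPM. The 5 bile duct markers all had a negative fold change, led by *Spp1*, with 1 at an unadjusted *p* below 0.05, against 2.28% of all genes in that direction, and summed to 33.1–46.6 CPM against 27.5–45.1 CPM. None of these markers passed adjustment (adjusted *p* of 0.998 for each with an unadjusted *p* below 0.05). T and NK cell markers, led by *Gzma*, summed to at most 4.10 CPM, and B and plasma cell markers, led per length by *Cd79a*, to at most 2.82 CPM. The fold changes of all 6 sinusoidal endothelial markers were positive, and they summed to 58.2–97.1 CPM against 67.4–132 CPM. The most abundant, *Clec4g*, was the 1 at an unadjusted *p* below 0.05 (edgeR log2 fold change 0.37 ± 0.141, unadjusted *p* = 0.0169), against 1.53% of all genes in that direction. Over all genes tested, 6489 of 12653 had a positive fold change. Of the 6 hepatocyte markers 3 were positive and 3 negative, with 1 of the positive at an unadjusted *p* below 0.05. Stellate cell markers, led by *Dcn*, had 4 positive and 2 negative fold changes and summed to 218–269 CPM against 160–330.3 CPM.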

How the data were processed

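Strand-specific polyA libraries from the right liver lobe of 14 mice, 7 per group, were sequenced on an Illumina NovaSeq system. The authors trimmed adapters, aligned reads with HISAT2 to GRCm38 and deposited raw counts of uniquely mapped reads per gene, without normalisation. The tool that made the counts, and whether it used strand, are not given in the sources used here. Overlapping genes and close copies are therefore uncertain. All 14 deposited columns of counts were used. Total counts per mouse were 15197498 to 21060376. No pair of libraries within a group was alike within sampling noise (lowest chi-square per degree of freedom 15.7 over 42 pairs).

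Counts were compared with edgeR 4.0.16 in R 4.3.3 (TMM, filterByExpr, robust quasi-likelihood test) over 12653 genes, with Benjamini–Hochberg adjustment over all of them. Standard errors were derived from each fold change and its *F* statistic. CPM and RPKM were computed from the deposited counts and gene lengths. Permutation tests were two-sided, exact over all relabellings for differences of mean log2 CPM (prior count 2) and of log2 count ratios (0.5 added to each count), and drawn 100000 times for correlations. The smallest exact *p* possible was 0.000583 for 14 mice. RefSeq supplied promoter windows (1 is not reported here), and GENCODE supplied exons. The edgeR procedure was tested on simulated counts.

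Each library was assigned from its sample label, and the labels name no batch or pairing of mice. The 9 enzymes and all lists were chosen with earlier results of these data known. Named genes are the 9 enzymes, *Ido1*, and of each pathway list any whose unadjusted edgeR or exact permutation *p* was below 0.05 and its top gene per length. They are also the 3 genes most correlated with *Tdo2* and with the enzyme of smallest *p*, and the most abundant gene per length of each marker list. Alternatives were RLE scaling, no filter, DESeq2 1.42.0, limma 3.58.1 voom with quality weights, leaving out each mouse, ratios with no addition, correlations with group means kept and without G8, and levels as TPM. The term for, and the omission of, the 4 libraries with a TMM factor above 1.05 were alternatives chosen after seeing the data.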

Additional observations from a re-analysis of the deposited data

Results flagged for a closer look

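Of 42 comparisons of the highest or lowest mouse with the rest of its group of 7, over the 9 enzymes, the 3 ratios and the marker sums, 4 had a gap to the nearest mouse that took an unusually large share of the group's range by Dixon's test. Chance gives this in about 1 of 20 such comparisons. *Tdo2* in the vehicle group was lowest in G13, at 1502 CPM, with a gap of 0.569 of the range. Without G13 the log2 fold change of *Tdo2* was −0.10 (unadjusted *p* = 0.218). The summed Kupffer cell and macrophage markers of the indole group were highest in G8, with a gap of 0.778 of the range, and its T and NK cell markers were also highest in G8, with a gap of 0.851. G8 had the highest *Qprt* of all mice, at 169 CPM, and the log2 fold change of *Qprt* without it was 0.06. The summed kidney proximal tubule markers of the vehicle group were highest in G13, with a gap of 0.584 of the range, at a level of 1.66 CPM.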

How the results depend on the processing

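Over 180 refits of the 9 enzymes (20 alternatives each), no adjusted *p* fell below 0.05 and 163 kept the sign of the log2 fold change. The 17 reversals concerned *Ido2*, *Kynu*, *Aadat* and *Tdo2*, all of values near 0. *Ido2* was positive at 0.000300 with RLE, 5.02e-06 in DESeq2 and 0.00559 in limma voom. With 1 mouse left out, *Ido2* ran from −0.0277 (without G12) to 0.0202 (without G9), *Kynu* from −0.0942 (G5) to 0.0276 (G2) and *Aadat* from −0.0734 (G13) to 0.00764 (G9). Without G1 to G4, *Tdo2* was 0.0440, *Ido2* 0.0371, *Kynu* 0.0261, *Aadat* 0.0272 and the *Ido2* to *Tdo2* log2 ratio −0.0101, and 2 enzymes instead of 6 were negative. With 1 mouse left out, 3 (without G9) to 6 were negative.

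The number of enzymes with an unadjusted *p* below 0.05 was 0, but 1 (*Haao*) with RLE, DESeq2, limma voom and the term for G1 to G4, 1 (*Afmid*) without those libraries, and 0 to 2 with 1 mouse left out. *Haao* passed in 6 of these 14 refits, *Afmid* without G2 and *Kmo* without G5. The pathway lists had 2 such genes, 1 with RLE and with limma voom, 3 with the term, 0 without G1 to G4, and 0 (without G2, G4, G7 or G11) to 4 (without G5) with 1 mouse left out. Over all genes the same fits placed 482 below this limit, 469 with RLE, 532 in DESeq2 and 551 in limma voom. The all-gene count was 631 with the term and 413 without G1 to G4. With 1 mouse left out it ran from 386 (without G4) to 627 (without G6). DESeq2 called 1 gene of the whole table, and with no filter 1336 genes instead of 482 had an unadjusted *p* below 0.05. The *Acmsd* to *Qprt* log2 ratio was −0.438 (without G12) to −0.274 (without G2), and its exact *p* fell below 0.05 without G5 (−0.405, exact *p* = 0.0297), G12 or G13 (−0.384, exact *p* = 0.0420). The median *r* between enzymes was 0.358 with group means kept, 0.325 within the 10 mice and 0.361 with means of both sets taken out. The cause was not tested. With 7 mice per group, changes smaller than the intervals given cannot be seen, least well for *Acmsd* and *Afmid*, whose intervals were the widest. No paired analysis was possible because each mouse received 1 treatment and the labels name no pairing.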
